A study of Mus musculus with 14 samples.

Results

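Whole mouse ear holds fat cells in its dermis and under the skin, and 10 genes of their lipid store and secreted hormones were followed here: Plin1, Plin4, Cidec, Pparg, Lpl, Fabp4, Car3, Adipoq, Lep and Cfd. They were chosen by name, as the rows of the expression table that carry these symbols, 10 of 24035 genes, with earlier results of these data known. All 10 were among the 14693 genes tested, those with at least 1 TPM (the unit of the table, a share of all transcripts scaled by transcript length) in at least 3 of 14 samples. Both genotypes lacked Langerhans cells, which are dendritic cells that live in the epidermis. LC-DTR mice had lost these cells to diphtheria toxin (DT) given 3 days earlier, and LC-DTA mice lacked them long term. No DT is recorded for the LC-DTA samples. The toxin and the recent loss of cells therefore cannot be told apart from genotype wherever LC-DTA and LC-DTR ears are compared. Each ear received 20 µl of acetone and olive oil as vehicle, or of 1% croton oil, a skin irritant that holds phorbol esters, on both sides, and was taken 6 h later. Each genotype had 3 vehicle and 4 croton oil samples. The sources used here give neither the promoters that drive the transgenes nor the age of the mice. Ears with their Langerhans cells intact were not analysed here, so the effect of losing these cells could not be read.

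A white adipocyte keeps triglyceride in a large lipid droplet. Perilipins coat the droplet and control how lipases reach it, CIDE proteins fuse small droplets into large ones, and the nuclear receptor PPARγ switches on most genes of the program. Lipoprotein lipase frees fatty acids from blood lipoproteins, and fatty acid binding proteins carry them inside the cell. Adipocytes also secrete hormones such as adiponectin and leptin. In skin they lie below the dermis and around hair follicles, and they respond to wounding and infection.

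The depth of each sample was unknown, since TPM keep no record of read numbers, and 13733 to 14332 genes reached 1 TPM in each sample. LC-DTR croton oil samples 2 and 3 stood apart from samples 1 and 4 of their group along the first principal component (50.5% of the variance), at -5.26 and -8.06 against -28.5 and -28.6, where the vehicle samples lay at 30.2 to 41.0. Called differences of the 10 genes that rest on that group are therefore also given without these samples, and for the other genes the calls lost without them are counted. Samples 2 and 3 were picked from these same data and lay nearer to the vehicle samples. Leaving them out therefore favours larger croton oil differences in LC-DTR ears, and a call gained without them is not separate evidence. Whether each sample was a separate animal is not in the labels, and p-values therefore measure the spread between these samples only. Label numbers followed the groups: every LC-DTA sample (10575 to 10797) had a lower number than every LC-DTR sample (10825 to 11098), and LC-DTR croton oil samples ran from 10851 to 10854 with vehicle at 10825, 10968 and 11098. What the numbers stand for is not in the sources used here, and any difference that follows them cannot be told apart from genotype or, in LC-DTR, from treatment. The adipocyte label held in every sample: Adipoq, a hormone gene with expression largely limited to adipocytes, was at 28.2 TPM or more, Lep at 8.04 or more and Plin1 at 3.03 or more. Cd207, the marker gene of Langerhans cells, was at 0.0567 to 1.88 TPM. The other genes listed as markers of these cells, Epcam, H2-Ab1 and Cd74, were at 196, 87.7 and 184.5 TPM or more. Which cells these values come from was not tested. Ucp1, the defining gene of brown adipocytes, stayed between 0.116 and 0.957 TPM. Other genes listed for brown adipocytes were higher, from Prdm16 at 1.56 TPM or more to Elovl3, also listed for sebaceous glands, at 264 TPM or more. Their cells of origin were not tested. In whole tissue, fewer adipocytes and less RNA per adipocyte cannot be told apart. Differences are given as log2 of TPM + 1, with their SE, a scale that understates changes of low genes. Calls were made in limma at an adjusted p under 0.05.

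Promoter sequence was looked up because 2 perilipin genes, Plin1 and Plin4, went opposite ways after croton oil in LC-DTR ears. RefSeq promoter windows of 250 bases before to 50 after the start (build GRCm38.p6) were found for 7 of the 10 genes, in 10 windows, and not for Fabp4, Car3 or Lpl. The C/EBP motif TTGCNNAA, read on both strands, stood in a single window each of 4 genes (Plin1, Pparg, Lep and Cidec). That was out of the 10 windows, beside 10.8% of 32817 mouse promoter windows. The PPAR element AGGTCANAGGTCA, with up to 2 changes allowed, stood in 0 of the 10 windows and in 3.86% of all windows. TATAAA stood in a single window, of Pparg, and in 13.6% of all windows. A match is a string of letters, not a bound site, and its lack says only that these letters are not in the window. Stretches of 3 genes upstream of their starts are shown, written 5′ to 3′ on the strand of the gene with matches to TTGCNNAA in capitals. They are Plin1 at chr7:79732904-79733026 (minus strand), Plin4 at chr17:56109804-56110032 (minus strand) and Lep at chr6:29059971-29060219 (plus strand), the last as a hormone gene whose level was called in no comparison.
Plin1: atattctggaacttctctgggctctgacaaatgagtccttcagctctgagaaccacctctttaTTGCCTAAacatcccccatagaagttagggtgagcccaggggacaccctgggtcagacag
Plin4: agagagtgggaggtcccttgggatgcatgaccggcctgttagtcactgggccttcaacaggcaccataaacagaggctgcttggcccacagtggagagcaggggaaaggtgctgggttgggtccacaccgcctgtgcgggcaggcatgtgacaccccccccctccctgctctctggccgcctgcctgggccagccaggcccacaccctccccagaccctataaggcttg
Lep: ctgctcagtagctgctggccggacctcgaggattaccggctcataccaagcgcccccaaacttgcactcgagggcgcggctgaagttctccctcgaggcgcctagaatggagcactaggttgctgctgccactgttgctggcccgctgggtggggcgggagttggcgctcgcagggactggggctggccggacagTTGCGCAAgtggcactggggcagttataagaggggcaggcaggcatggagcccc
The match in Plin1 begins at position -187 from the RefSeq start, and a further match at -58, TTGCCCAA, lies inside the GENCODE gene and outside the stretch shown. The match in Lep begins at -55 and reads the same on both strands, and the Plin4 stretch holds none. A link between these letters and the changes after croton oil was not tested.

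Per length, Fabp4 was the most abundant of the 10 genes, with a mean of 573 TPM over the 14 samples, followed by Car3 at 353, Lpl at 121, Cfd at 66.9, Adipoq at 58.2, Plin4 at 51.0, Cidec at 34.4, Pparg at 30.9, Plin1 at 17.4 and Lep at 15.8. Neighbours in this order overlapped over the samples, with 1 exception: the lowest Car3 level, 189 TPM, was above the highest Lpl level, 185 TPM. Plin1 was the most variable, from 3.03 to 39.0 TPM. The genes lay on several chromosomes (GENCODE M21 on GRCm38): Plin1 on chromosome 7 from 79720218 to 79732903, Plin4 on chromosome 17 from 56100591 to 56109803, Pparg on chromosome 6 from 115360951 to 115490399, Cidec on chromosome 6 from 113424634 to 113435760, and Lep on chromosome 6 from 29060220 to 29073877. Adipoq lay on chromosome 16 from 23146536 to 23158028, Fabp4 on chromosome 3 from 10204088 to 10208576, Car3 on chromosome 3 from 14863512 to 14872523, Lpl on chromosome 8 from 68880491 to 68907448 and Cfd on chromosome 10 from 79890853 to 79892655. Plin4 overlaps Hdgfl2 and Pparg overlaps an antisense gene, each on the opposite strand. The sources used here do not say whether reads were counted by strand, so the levels of Plin4 and Pparg are uncertain to that extent.

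**Figure D1:**
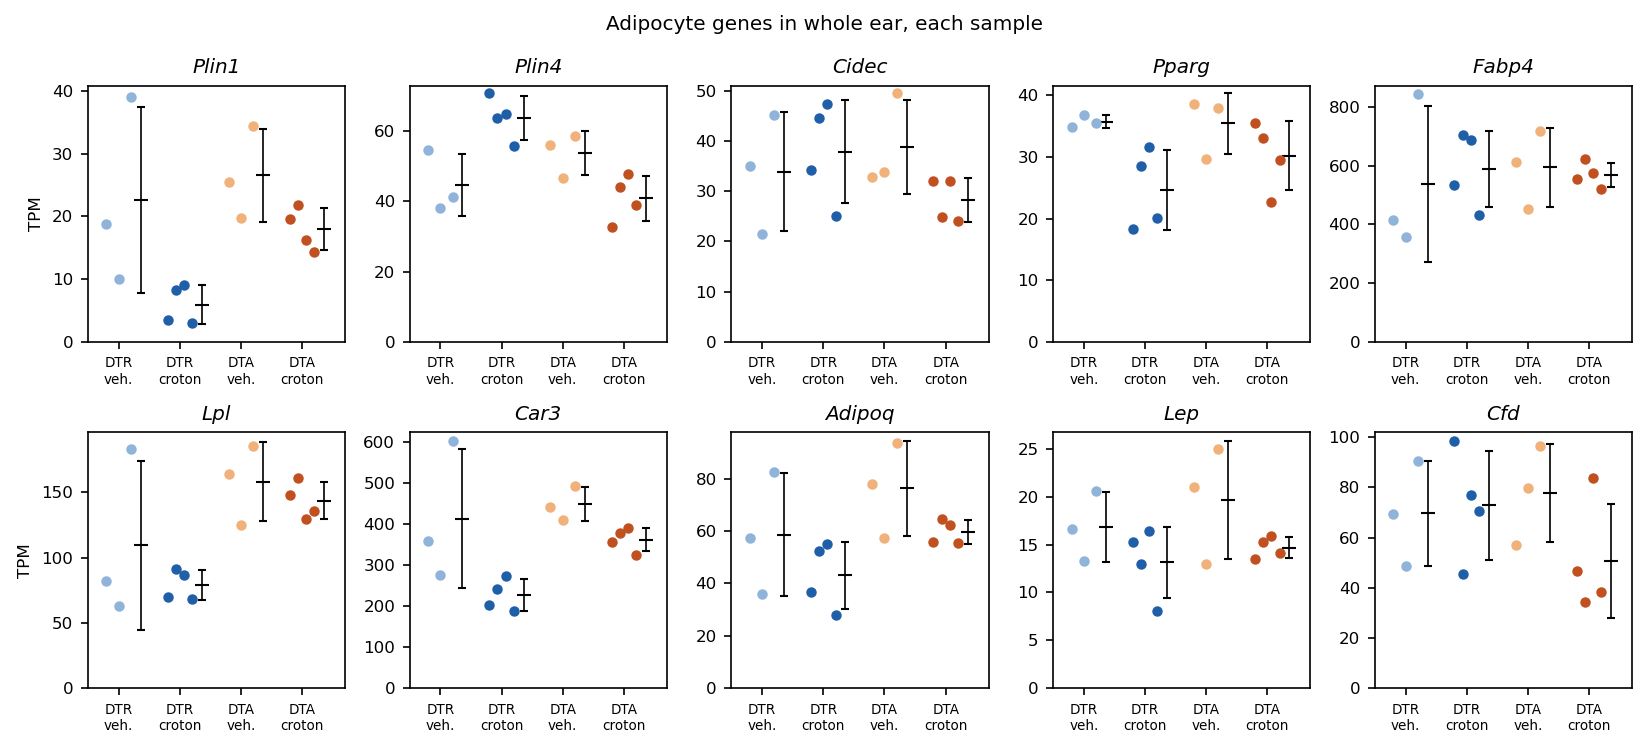
Each panel plots 1 gene, with TPM on the vertical axis from 0 and the 4 groups on the horizontal axis; points are samples, and the bar beside them is the mean with SD. Plin1 in LC-DTR croton oil samples sits between 3.03 and 9.09 TPM, below every other sample, while Plin4 in the same samples sits between 55.7 and 71.0 TPM.

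After croton oil, LC-DTR ears had lower levels of Plin1, Car3 and Pparg and a higher level of Plin4. Limma called 4 of the 10 genes, 1 higher and 3 lower, where 51.6% of all tested genes were called (22.1% higher and 29.5% lower). The median log2 difference of the 10 genes was -0.34, beside -0.06 for all tested genes. The share called among the 10 genes was not above that background.

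Plin1 encodes perilipin 1, the coat protein of the adipocyte droplet that holds back lipolysis until it is phosphorylated. Its level was 18.8, 10.004 and 39.0 TPM in LC-DTR vehicle samples and 3.40, 8.22, 9.09 and 3.03 TPM in LC-DTR croton oil samples. All 4 croton oil samples lay below all 3 vehicle samples, as for 27.1% of all tested genes, and samples 1 and 4 were the lowest. Plin1 fell by 1.69 ± 0.40 on the log2 scale, 3.23-fold (adjusted p = 0.00302), and by 2.29 ± 0.40 without samples 2 and 3 (adjusted p = 0.000624).

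Plin4 encodes perilipin 4, a coat protein of small and newly formed droplets. Its level was 54.6, 38.2 and 41.2 TPM in LC-DTR vehicle samples and 71.0, 63.7, 64.9 and 55.7 TPM in LC-DTR croton oil samples. The groups did not overlap, as for 20.6% of all tested genes in the higher direction, although vehicle sample 1 came within about 1 TPM of the lowest croton oil sample. Plin4 rose by 0.52 ± 0.14, 1.43-fold (adjusted p = 0.00712), and by 0.50 ± 0.18 without samples 2 and 3 (adjusted p = 0.0339).

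Car3 encodes carbonic anhydrase 3, a cytosolic enzyme abundant in adipocytes and in slow skeletal muscle. It was at 360.2, 276 and 603 TPM in LC-DTR vehicle samples and at 203, 242, 275 and 189 TPM in LC-DTR croton oil samples. These groups did not overlap either, but croton oil sample 3 and vehicle sample 2 differed by less than 2 TPM. Car3 fell by 0.80 ± 0.20 (adjusted p = 0.00440), and by 1.00 ± 0.23 without samples 2 and 3 (adjusted p = 0.00371). Vehicle sample 3 weighed most on the size of this fall, which was 0.49 without it (adjusted p = 0.0152). Of 10 skeletal muscle markers, which are genes of fast fibres or of all fibres and include none of slow fibres, 0 were called in this comparison (limma), so RNA of slow muscle was not read by them. Their summed level was 3191 to 4414 TPM in vehicle and 3665 to 4318 TPM in croton oil samples.

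Pparg encodes PPARγ, the master regulator of the adipocyte program, which is also active in sebaceous glands. It was at 34.8, 36.9 and 35.6 TPM in LC-DTR vehicle samples and at 18.3, 28.5, 31.7 and 20.1 TPM in LC-DTR croton oil samples. All croton oil samples were lower, and samples 1 and 4 were the lowest. Pparg fell by 0.55 ± 0.18 (adjusted p = 0.0194), and by 0.86 ± 0.16 without samples 2 and 3 (adjusted p = 0.000867). The call was lost without vehicle sample 2, croton oil sample 1 or croton oil sample 4, with adjusted p = 0.0523, 0.0573 and 0.0584. The summed level of 12 sebaceous gland genes was 6697 to 7904 TPM in vehicle and 4388 to 7196 TPM in croton oil samples, and 1 of the 12 was called higher and 3 lower (6 lower without croton oil samples 2 and 3, and 0 with median ratio scaling). Their part in the Pparg result was not tested.

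The other 6 genes were not called in LC-DTR ears, and the groups of each overlapped. Adipoq, which encodes the insulin-sensitizing hormone adiponectin, differed by -0.40 ± 0.26 (adjusted p = 0.213). Without croton oil samples 2 and 3 that difference was -0.76 ± 0.28 (adjusted p = 0.0370), and Adipoq was then called with the other 4, beside 52.0% of all genes tested in that fit. Single vehicle samples also decided calls: without sample 2 Adipoq was called at -0.71 and Lpl at -0.64 (adjusted p = 0.0304 and 0.0472), and without sample 3 Fabp4 was called at 0.58 (adjusted p = 0.0270). With all samples Lep, which encodes the satiety hormone leptin, differed by -0.35 ± 0.23, and Lpl, the lipoprotein lipase gene, by -0.33 ± 0.26. Cidec, which encodes a droplet fusion protein, differed by 0.17 ± 0.25, Fabp4, the adipocyte fatty acid binding protein gene, by 0.21 ± 0.25, and Cfd, which encodes the complement protease adipsin, by 0.05 ± 0.31. The 95% interval for Fabp4 ran from -0.33 to 0.75, so a change of either sign was within the error.

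**Figure D2:**
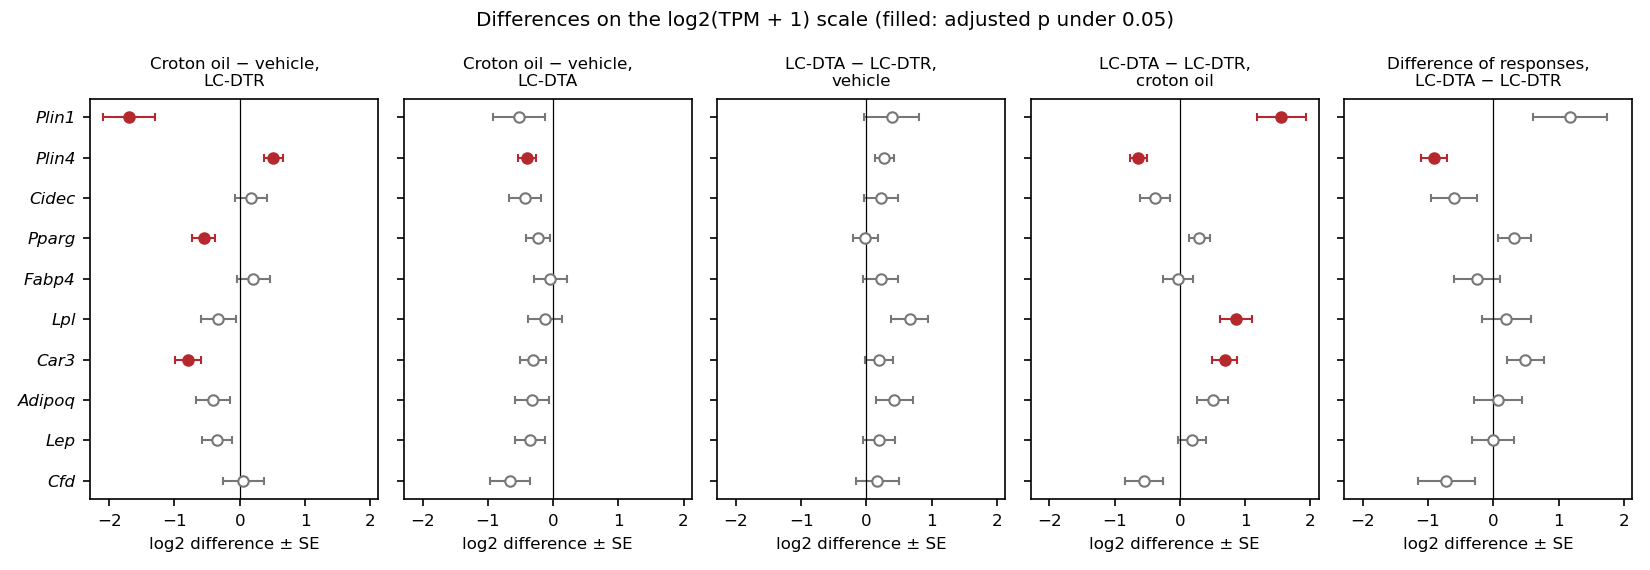
Log2 differences of the 10 genes (vertical axis) on the log2(TPM + 1) scale (horizontal axis) with SE bars, 1 panel for each of the 5 comparisons; filled red points are called by limma. Plin4 is called higher at 0.52 in LC-DTR and lower at -0.39 in LC-DTA, and no gene is called between the genotypes under vehicle.

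In LC-DTA ears limma called 1 of the 10 genes, Plin4, where 58.7% of all tested genes were called (24.2% higher and 34.5% lower). The median log2 difference of the 10 genes was -0.34, beside -0.09 for all tested genes. Plin4 was at 56.1, 46.7 and 58.7 TPM in LC-DTA vehicle samples and at 32.8, 44.1, 47.7 and 38.9 TPM in LC-DTA croton oil samples. The groups overlapped, since croton oil sample 3 was above vehicle sample 2. Plin4 fell by 0.39 ± 0.14 (adjusted p = 0.0256). This call was lost with median ratio scaling (adjusted p = 0.0542) and without vehicle sample 1 or 3 or croton oil sample 1 or 4 (adjusted p from 0.0532 to 0.0991).

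The other 9 genes were not called in LC-DTA ears, with the spread taken over all 4 groups, and all 9 had differences below 0, of which that of Fabp4 turned above 0 (0.05) with median ratio scaling. Plin1 was at 25.5, 19.7 and 34.4 TPM in vehicle and 19.6, 21.9, 16.2 and 14.3 TPM in croton oil samples, and the groups overlapped, with a difference of -0.52 ± 0.40 (adjusted p = 0.278). Car3 was at 442, 411 and 493 TPM in vehicle and 356, 377, 392 and 325 TPM in croton oil samples. Its groups did not overlap, as for 36.9% of all tested genes in the lower direction, and its difference was -0.31 ± 0.20 (adjusted p = 0.203). Cidec, at 32.8 to 49.5 TPM in vehicle and 24.1 to 32.0 TPM in croton oil samples, also did not overlap and differed by -0.43 ± 0.25 (adjusted p = 0.153). With only the LC-DTA groups in the fit, Plin1, Cidec and Car3 were called lower (adjusted p = 0.0386, 0.0413 and 0.0106) at the same differences with SE of 0.19, 0.16 and 0.08. Of 14693 genes, that fit called 3736 higher and 5347 lower. With all 4 groups in the fit, Cfd had the difference farthest from 0, -0.66 ± 0.31 (adjusted p = 0.0813). Its croton oil sample 3, at 83.7 TPM, lay far above the other 3, at 34.2 to 46.8 TPM. Without that sample Cfd was called lower, at -0.93 ± 0.27 (adjusted p = 0.0119). Lep was called at -0.61 without vehicle sample 2 (adjusted p = 0.0360). Fabp4 was nearest to 0, at -0.04 ± 0.25. Of 10 skeletal muscle markers, 4 were called lower here, where 34.5% of all tested genes were called lower. Their sum was 3200 to 5667 TPM in vehicle and 2675 to 4384 TPM in croton oil samples, so these ranges overlapped. These markers include no slow-fibre gene, and their part in the Car3 values was not tested.

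Between the genotypes under vehicle, limma called 0 of the 10 genes, where 24.5% of all tested genes were called (19.1% higher and 5.34% lower in LC-DTA). At an unadjusted p under 0.05 there was 1 gene, Lpl, and none of the 10 was called under the 12 alternatives other than leaving out single samples. Lpl was at 82.0, 63.3 and 183 TPM in LC-DTR and at 164, 125 and 185 TPM in LC-DTA vehicle samples. LC-DTR vehicle sample 3 lay with the LC-DTA samples, and the other 2 lay below all of them. The difference was 0.66 ± 0.28 (unadjusted p = 0.0345, adjusted p = 0.104). Without LC-DTR vehicle sample 3, 3 genes were called higher in LC-DTA: Lpl at 1.11 ± 0.17, Fabp4 at 0.60 ± 0.21 and Car3 at 0.50 ± 0.15 (adjusted p = 0.000832, 0.0486 and 0.0290). Of 14665 genes, that fit called 2723 higher and 982 lower. Without LC-DTR vehicle sample 1, Plin4 alone was called, at 0.42 ± 0.15 (adjusted p = 0.0498). The median of the 10 genes was 0.22, beside 0.10 for all tested genes. Median ratio scaling moved the median of all genes from 0.10 to -0.01 and the calls from 2810 higher and 785 lower to 1728 higher and 1712 lower, so differences here are relative to that shift.

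After croton oil the genotypes differed in 4 of the 10 genes: Plin1, Lpl and Car3 were higher and Plin4 was lower in LC-DTA ears. Limma called 52.3% of all tested genes in this comparison (34.3% higher and 18.0% lower), so the share called among the 10 genes was not above that background. Plin1 was higher by 1.56 ± 0.37, 2.94-fold (adjusted p = 0.00306), and its lowest LC-DTA level, 14.3 TPM, was above its highest LC-DTR level, 9.09 TPM. Lpl was at 70.0, 91.0, 86.6 and 68.3 TPM in LC-DTR and at 148, 161, 129.7 and 136 TPM in LC-DTA croton oil samples. These groups lay well apart, with a difference of 0.86 ± 0.24, 1.82-fold (adjusted p = 0.00919). Car3 was higher by 0.68 ± 0.18 (adjusted p = 0.00688) and Plin4 was lower by -0.64 ± 0.13 (adjusted p = 0.00107). Neither overlapped between the genotypes, as for 29.6% of all tested genes in the higher and 15.7% in the lower direction. All 4 calls kept their side of the threshold in every alternative run. Without LC-DTR croton oil samples 2 and 3 the differences were 2.16 ± 0.38 for Plin1, 1.04 ± 0.31 for Lpl, 0.88 ± 0.22 for Car3 and -0.62 ± 0.17 for Plin4 (adjusted p = 0.00107, 0.0176, 0.00720 and 0.0113).

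Adipoq also did not overlap between the genotypes after croton oil, but was not called, at 0.50 ± 0.24 (adjusted p = 0.0952). Without LC-DTR croton oil samples 2 and 3 limma called 6 of the 10 genes, beside 44.7% of all genes tested in that fit. Those added were Adipoq at 0.86 ± 0.26 and Pparg at 0.61 ± 0.15 (adjusted p = 0.0198 and 0.00712). Fabp4, Lep, Cidec and Cfd were not called, with differences of -0.03 ± 0.23, 0.19 ± 0.21, -0.38 ± 0.23 and -0.55 ± 0.29. Cfd was called lower in LC-DTA at -0.82 without LC-DTA croton oil sample 3 and at -0.76 without LC-DTR croton oil sample 2 (adjusted p = 0.0190 and 0.0443). Pparg was called higher at 0.43 without LC-DTR or LC-DTA croton oil sample 3 (adjusted p = 0.0421 and 0.0444), and Adipoq with only the compared groups in the fit (adjusted p = 0.0453). Median ratio scaling moved the calls over all genes from 5041 higher and 2647 lower to 3686 higher and 3709 lower.

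The difference of the croton oil responses asks whether a gene responded otherwise in LC-DTA than in LC-DTR ears. Of the 10 genes only Plin4 was called, where 23.1% of all tested genes were called (10.5% higher and 12.6% lower). Its response was lower in LC-DTA by -0.91 ± 0.20 (adjusted p = 0.00595), and the call held under every alternative that gave this value, with adjusted p from 0.00233 to 0.0196. Without LC-DTR croton oil samples 2 and 3 it was -0.90 ± 0.23. Plin1 was called in LC-DTR and not in LC-DTA ears, but the difference of its responses, 1.17 ± 0.56, was not called (adjusted p = 0.146). That of Plin1 was called without LC-DTR croton oil samples 2 and 3, at 1.77 ± 0.53 (adjusted p = 0.0339), and without LC-DTR vehicle sample 2, at 1.63 (adjusted p = 0.0419). Car3 was likewise called at 0.74 without LC-DTR vehicle sample 2 (adjusted p = 0.0472), against 0.49 ± 0.28 with all samples.

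Ratios of 2 genes within a sample show unequal change, and they were chosen after the values were seen, so they are given with no test. The ratio of Plin1 to Adipoq was 0.0921 to 0.165 in the 4 LC-DTR croton oil samples, and the lowest of the other 10 samples was at 0.258. Plin1 to Plin4 was 0.0479 to 0.140 in LC-DTR croton oil samples and 0.262 to 0.945 in LC-DTR vehicle samples. In LC-DTA ears that ratio was 0.422 to 0.586 under vehicle and 0.338 to 0.598 after croton oil, so these groups overlapped. Plin4 to Adipoq was 1.18 to 1.98 in LC-DTR croton oil samples, above every other sample, where it was 0.499 to 1.07.

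**Figure D3:**
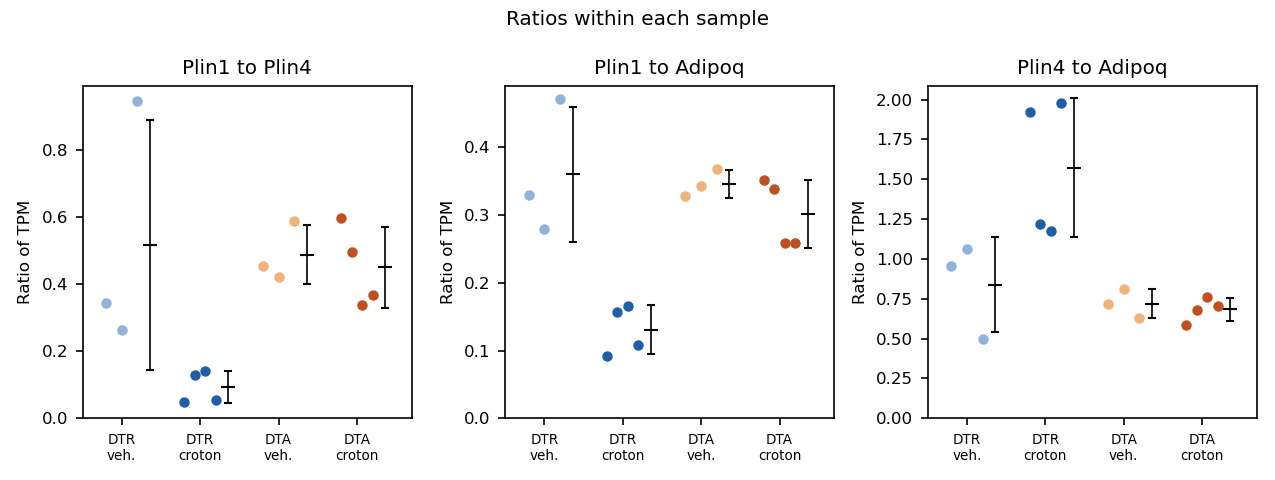
Each panel plots the ratio of the TPM of 2 genes within a sample (vertical axis from 0) in the 4 groups (horizontal axis); points are samples and the bar is the mean with SD. The ratio of Plin1 to Adipoq lies at 0.0921 to 0.165 in LC-DTR croton oil samples and at 0.258 or more in every other sample.

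Within groups the 10 genes varied more than most genes. The residual SD of their log2 values over the 4 groups had a median of 0.379, beside 0.135 for all tested genes. Plin1 had the largest of the 10, 0.607, at percentile 99.3 of all tested genes, followed by Cfd at percentile 98.2, and Plin4 had the smallest, 0.205, at percentile 79.4. Among genes of like level the percentiles ran from 88.9 for Plin4 to 99.5 for Plin1. By group, the median SD of the 10 genes under vehicle was 0.549 in LC-DTR and 0.332 in LC-DTA samples, and after croton oil it was 0.388 and 0.176. Over all genes these medians were 0.136, 0.0830, 0.132 and 0.116, so the LC-DTA croton oil samples were the most alike in adipocyte genes but not the most alike over all genes.

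The 7 genes Adipoq, Car3, Fabp4, Plin1, Cidec, Lpl and Lep, went up and down together from sample to sample within groups. Over the 14 samples, with group means removed, the correlation of each with the mean of the other 9 was 0.970 for Adipoq, 0.940 for Car3, 0.933 for Fabp4, 0.910 for Plin1, 0.902 for Cidec, 0.842 for Lpl and 0.797 for Lep. Plin4, Pparg and Cfd stood outside this pattern, at 0.308, 0.305 and 0.207. LC-DTR vehicle samples 3 and 2 were farthest from their group mean, by 0.49 and -0.46 on average over the 10 genes, and without them the 7 correlations were 0.709 to 0.951, while those of Plin4, Pparg and Cfd were 0.376, 0.508 and -0.113. The points share tissue piece and library, so these are descriptions only.

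The samples that were high or low were so across most of the genes. LC-DTR vehicle sample 3 was above its group mean in 8 of 10 genes, LC-DTR croton oil sample 3 in 10 and LC-DTA vehicle sample 3 in 10. LC-DTR vehicle sample 2, LC-DTR croton oil sample 4 and LC-DTA vehicle sample 2 were above it in 1 gene each, and LC-DTA croton oil sample 4 in 0. Fabp4 shows the size of this spread: it was 415, 358 and 843 TPM in LC-DTR vehicle samples and 556, 621, 574 and 521 TPM in LC-DTA croton oil samples. The summed TPM of the 10 genes was 902 to 1984 under vehicle and 900.4 to 1350 after croton oil in LC-DTR ears, and 1267 to 1791 and 1197 to 1398 in LC-DTA ears, and all 4 ranges overlapped.

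**Figure D4:**
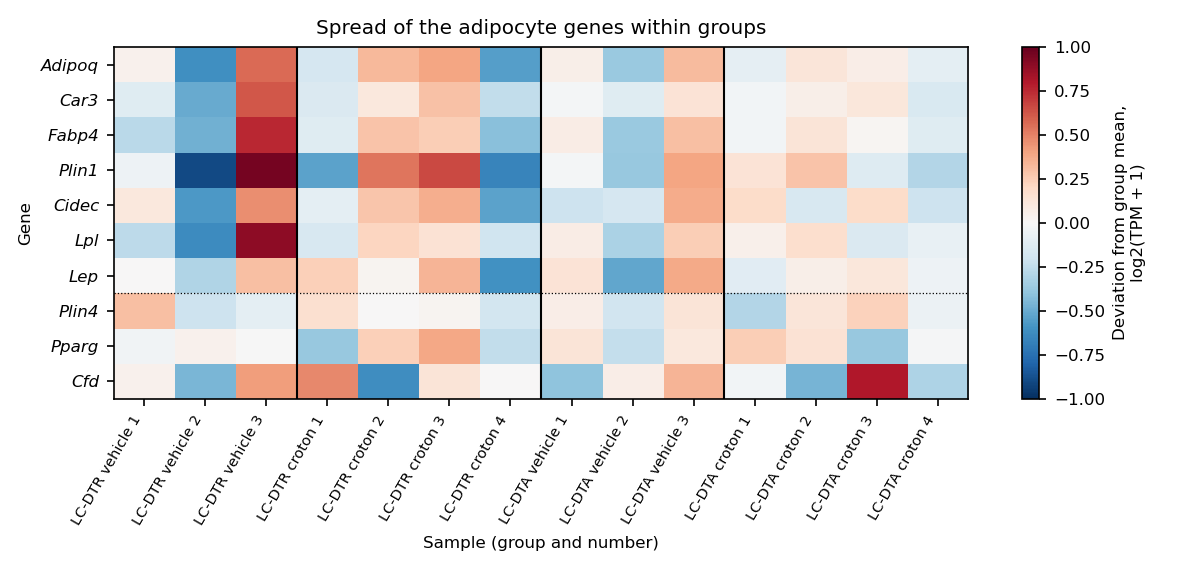
Deviation of each gene (vertical axis) from its group mean on the log2(TPM + 1) scale (colour, red above and blue below), for each of the 14 samples (horizontal axis), with lines between groups. LC-DTR vehicle samples 3 and 2 deviate by 0.49 and -0.46 on average, and the 7 genes above the dotted line are those whose correlation with the mean of the others was 0.797 to 0.970.

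Other genes followed the same within-group pattern. Of 11311 genes outside the 10 with a mean of at least 5 TPM, the most alike were Col5a2 (0.952), Fam114a1 (0.940), Ikbip (0.931), Col6a1 (0.925), Fstl1 (0.922) and Mcam (0.920). Col5a2 and Col6a1 encode collagen chains, Fstl1 a secreted glycoprotein and Mcam an adhesion molecule of vessel walls. The least alike were Efna1 (-0.935), F2rl1 (-0.893) and Zkscan6 (-0.880). The fibroblast markers had a median correlation of 0.831 with the mean of the 10 genes, the macrophage markers 0.644 and the endothelial markers 0.587. Skeletal muscle markers were at -0.186, sebaceous gland markers at 0.220 and cartilage markers at -0.087, beside 0.052 for all tested genes. Lists of other lipid genes had medians of 0.613 (adipokines), 0.507 (uptake), 0.502 (lipolysis), 0.347 (synthesis) and 0.203 (droplet genes). Brown adipocyte genes were at 0.210, progenitor genes at 0.106, transcription factor genes at -0.037 and receptor genes at -0.248. Trarg1 (0.918) and Pck1 (0.913), from the uptake and synthesis lists, were below the cut of 5 TPM.

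The stromal markers also differed between groups. The summed level of 6 fibroblast genes was 2130 to 4872 TPM under vehicle and 2182 to 3225 after croton oil in LC-DTR ears, and 7003 to 8813 and 4451 to 6067 in LC-DTA ears. Between the genotypes limma called 6 of 6 fibroblast genes higher in LC-DTA under vehicle and 5 of 6 after croton oil (4 without LC-DTR croton oil samples 2 and 3), where 19.1% and 34.3% of all tested genes were called higher. Of 8 macrophage genes, a cell type that can also express Lpl, 8 were higher in LC-DTA under vehicle and 6 after croton oil, with sums of 533 to 690.3 TPM in LC-DTR and 1429 to 1784 TPM in LC-DTA croton oil samples. With median ratio scaling, which gave 1728 higher and 1712 lower calls over all genes under vehicle and 3686 and 3709 after croton oil, the counts were 6 and 5 for the fibroblast genes and 8 and 5 for the macrophage genes. Their part in the Plin1, Lpl and Car3 differences was not tested. Neutrophil genes rose in both genotypes, 6 of 6 called, from sums of 25.7 to 68.9 TPM to 262 to 769 TPM in LC-DTR and from 33.7 to 67.4 TPM to 439 to 670.0 TPM in LC-DTA ears. In the LC-DTR croton oil group, samples 2 and 3 had the lower neutrophil sums, 339 and 262 TPM against 769 and 728. They also had the higher Plin1, Pparg, Adipoq, Fabp4, Cidec, Car3 and Lpl levels, while Lep, Plin4 and Cfd did not set these samples apart in that way. A link between the neutrophil sums and these levels was not tested.

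The other genes of lipid handling were read against the same background, where croton oil was followed by higher calls in 22.1% and lower calls in 29.5% of all tested genes in LC-DTR, and in 24.2% and 34.5% in LC-DTA. Levels are means over the 3 vehicle or 4 croton oil samples of a genotype with their SD, and log2 differences carry the SE. Without LC-DTR croton oil samples 2 and 3, 49 of the 54 list genes called in LC-DTR kept their call, and 16 of the 20 called for the difference of responses did. Among 9 other lipid droplet genes, croton oil was followed by 1 higher and 4 lower calls in LC-DTR and by 1 higher and 6 lower in LC-DTA ears. Plin5, which encodes a perilipin of oxidative tissues such as muscle and heart, rose from 5.72 ± 1.04 to 12.7 ± 1.94 TPM in LC-DTR and fell from 4.66 ± 0.417 to 2.44 ± 0.740 TPM in LC-DTA ears. The difference of its responses was -1.77 ± 0.24 (adjusted p = 0.000489). Plin2, the perilipin of most non-adipocyte cells, rose in LC-DTA ears by 0.43 ± 0.12, and in LC-DTR ears it differed by 0.28 ± 0.12 (adjusted p = 0.0569). Plin3, a perilipin found in most tissues, fell in both, by 0.49 ± 0.10 and 0.81 ± 0.10. Cavin1 and Cav1, the caveola genes, fell in LC-DTR ears by 0.65 ± 0.10 and 0.43 ± 0.09, and the difference of responses was called for neither. Of the 5 perilipin genes, then, Plin4 and Plin5 were called in opposite directions in the 2 genotypes, although the Plin4 call in LC-DTA was lost in several alternatives.

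**Figure D5:**
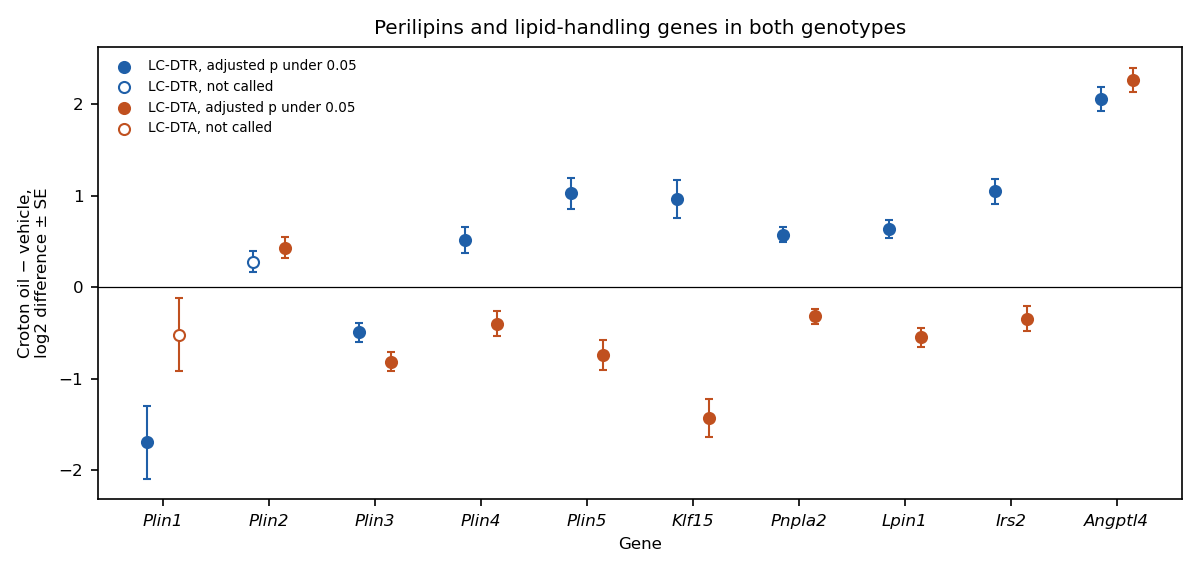
Log2 difference of croton oil against vehicle with SE bars (vertical axis) for the 5 perilipin genes and for Klf15, Pnpla2, Lpin1, Irs2 and Angptl4 (horizontal axis), in LC-DTR (blue) and LC-DTA (orange) ears; filled points are called by limma. Plin4, Plin5, Klf15, Pnpla2, Lpin1 and Irs2 lie above 0 in LC-DTR and below 0 in LC-DTA ears, while Angptl4 lies above 2 in both.

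Of 10 lipolysis genes, 3 were called higher and 4 lower in LC-DTR ears, and 1 higher and 4 lower in LC-DTA ears. Pnpla2, which encodes the first lipase of triglyceride breakdown (ATGL), rose from 103 ± 0.198 to 155 ± 17.0 TPM in LC-DTR and fell from 116 ± 10.9 to 92.8 ± 5.78 TPM in LC-DTA ears. The difference of responses was -0.90 ± 0.12 (adjusted p = 0.000445). Adrb3, the adrenergic receptor gene typical of mouse adipocytes, fell in both genotypes, by 0.32 ± 0.10 in LC-DTR and 0.54 ± 0.10 in LC-DTA ears, with mean levels near 1 TPM or lower; the LC-DTR call was lost without croton oil sample 1 (adjusted p = 0.0538). G0s2, whose product inhibits ATGL, fell in both genotypes, by 0.53 ± 0.16 and 0.68 ± 0.16, and was not called in LC-DTR without vehicle sample 3 (adjusted p = 0.0675). Lipe, the hormone-sensitive lipase gene, was called in none of the 5 comparisons and stayed at 23.9 to 28.6 TPM on average.

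Of 15 genes for fatty acid and triglyceride synthesis, 10 were called lower and 2 higher in LC-DTR ears, and 7 lower and 1 higher in LC-DTA ears. Acaca and Acly, which encode enzymes that make malonyl-CoA and acetyl-CoA for fatty acids, fell in LC-DTR ears by 0.54 ± 0.08 and 0.53 ± 0.10 and were not called in LC-DTA ears. The differences of responses were 0.57 ± 0.11 and 0.71 ± 0.14 (adjusted p = 0.00309 and 0.00355). Lpin1, which encodes a phosphatidate phosphatase, rose from 11.6 ± 0.888 to 18.7 ± 1.11 TPM in LC-DTR and fell from 15.7 ± 1.87 to 10.4 ± 1.18 TPM in LC-DTA ears, a difference of -1.18 ± 0.14 (adjusted p = 0.000229). Dgat1, which encodes an enzyme of the last step of triglyceride synthesis, rose in both, by 0.65 ± 0.10 and 0.57 ± 0.10. Many of these genes are also expressed in sebaceous glands and keratinocytes, and which cells the values come from was not tested.

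Of 11 tested uptake genes, 2 were called higher and 5 lower in LC-DTR ears, and 2 higher and 6 lower in LC-DTA ears. Angptl4, which encodes an inhibitor of lipoprotein lipase, rose in both genotypes, from 25.7 ± 5.19 to 109 ± 6.21 TPM and from 17.1 ± 3.04 to 86.1 ± 9.33 TPM, by 2.06 ± 0.13 and 2.27 ± 0.13. Lpl itself was called in neither. Gpihbp1, which encodes the protein that holds lipoprotein lipase on capillaries, rose in LC-DTR ears by 0.50 ± 0.12 and fell in LC-DTA ears by 0.97 ± 0.12, a difference of -1.48 ± 0.17 (adjusted p = 0.000229). Slc27a1, a fatty acid transporter gene, fell in LC-DTA ears by 1.05 ± 0.12, and Trarg1, a gene of adipocyte glucose transporter traffic, fell in LC-DTR ears by 1.22 ± 0.25 from 3.24 ± 1.45 TPM. The difference of responses was called for Slc27a1 and not for Trarg1. Acsl1, which encodes an enzyme that activates fatty acids, fell in LC-DTR ears by 0.57 ± 0.06.

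Of 15 adipogenic transcription factor and cofactor genes, 6 were called higher and 5 lower in LC-DTR ears, and 4 higher and 9 lower in LC-DTA ears. Cebpd and Cebpb, which act before PPARγ in fat cell formation and are also acute inflammatory genes, rose in both genotypes, Cebpd by 2.25 ± 0.21 and 1.74 ± 0.21 and Cebpb by 0.81 ± 0.13 and 0.46 ± 0.13, the last not called without LC-DTA vehicle sample 2 (adjusted p = 0.0514). Cebpa, the C/EBP factor of mature adipocytes, fell in LC-DTA ears by 0.48 ± 0.08 and differed by -0.15 ± 0.08 in LC-DTR ears. Rxra, which encodes the partner of PPARγ, fell in both, by 0.53 ± 0.09 and 0.72 ± 0.09, as did Srebf1, by 0.85 ± 0.07 and 0.96 ± 0.07. Klf15 rose from 13.3 ± 3.96 to 26.2 ± 2.48 TPM in LC-DTR and fell from 12.3 ± 3.35 to 3.92 ± 1.06 TPM in LC-DTA ears, and the difference of responses was -2.39 ± 0.29 (adjusted p = 0.000257). Ppargc1a, a coactivator gene of oxidative metabolism, rose in both, by 2.28 ± 0.17 and 1.17 ± 0.17.

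Among 10 other adipokine and secreted protein genes, croton oil was followed by 0 higher and 5 lower calls in LC-DTR and 0 higher and 6 lower in LC-DTA ears, while LC-DTA exceeded LC-DTR in 5 under vehicle and 6 after croton oil, where 19.1% and 34.3% of all tested genes were higher. Over the 89 tested genes of all these lipid lists, median ratio scaling moved the genotype calls under vehicle from 18 higher and 8 lower to 13 and 14. After croton oil they moved from 21 higher and 23 lower to 18 and 27. Sncg, a gene abundant in white fat and also in sensory nerves, was at 68.7 ± 4.47 and 32.7 ± 5.22 TPM in LC-DTR and at 100.9 ± 3.97 and 65.0 ± 7.14 TPM in LC-DTA ears under vehicle and after croton oil. It fell in both, by 1.06 ± 0.11 and 0.63 ± 0.11. Lgals12, a galectin gene of adipocyte droplets, fell by 0.98 ± 0.15 and 0.63 ± 0.15, and Itih5 fell by 0.72 ± 0.17 in each. Apln, which encodes the peptide apelin made by adipocytes and endothelial cells, was higher in LC-DTA by 1.69 ± 0.24 under vehicle and by 1.63 ± 0.21 after croton oil. Retn, the resistin gene, was called in none of the 5 comparisons.

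Of 7 adipokine and insulin receptor and substrate genes, 1 was called higher and 0 lower in LC-DTR ears, and 1 higher and 5 lower in LC-DTA ears. Irs2, which encodes a substrate of the insulin receptor, rose from 12.4 ± 2.31 to 26.5 ± 2.80 TPM in LC-DTR and fell from 12.98 ± 2.09 to 9.998 ± 1.20 TPM in LC-DTA ears, with a difference of responses of -1.39 ± 0.19 (adjusted p = 0.000541). Its call in LC-DTA was lost without any 1 of 6 samples (LC-DTA vehicle 2 or 3, LC-DTA croton oil 1, 2 or 3, or LC-DTR croton oil 4), with adjusted p from 0.0505 to 0.209. Lepr, the leptin receptor gene, fell in LC-DTA ears by 1.06 ± 0.20 and differed by 0.07 ± 0.20 in LC-DTR ears. Of 5 tested brown adipocyte genes, Prdm16 fell in both genotypes, by 0.37 ± 0.13 and 0.49 ± 0.13, although its LC-DTR call was lost without croton oil samples 2 and 3 (adjusted p = 0.0983) or without vehicle sample 1 or croton oil sample 2 or 4 alone (adjusted p = 0.164, 0.0603 and 0.0729), and Dio2 rose in LC-DTA ears by 1.13 ± 0.18. Of 7 progenitor genes, 3 were called higher and 2 lower in LC-DTR ears, and 2 higher and 2 lower in LC-DTA ears. Icam1 and Ly6a rose in both, Icam1 by 1.55 ± 0.22 and 1.33 ± 0.22, and Cd34 fell, by 0.68 ± 0.18 and 0.81 ± 0.18; all 3 are also expressed by vascular cells.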

How the data were processed

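Expression was measured by mRNA sequencing (Illumina TruSeq Stranded mRNA kit, per the labels' protocols) in 14 mouse ear samples. The authors deposited 1 TPM value per gene and sample. Per the submitters' processing notes cutadapt, HISAT2, Subread and featureCounts were used with mm10, and the step from counts to TPM is not given in the sources used here. Of 24062 rows, 27 were named as dates, made up 0.124 to 0.145% of a sample and were dropped. Samples were grouped by the labels, and 0 value columns were left unmapped.

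Limma 3.58.1 (R 4.3.3) fitted log2(TPM + 1) as 4 group means over 14 samples, with a mean-variance trend. The filter was 1 TPM or more in 3 or more samples. Two-sided p-values were adjusted by Benjamini-Hochberg over the 14693 genes tested in each of 5 comparisons, and intervals are 95% intervals of that fit. Spread and likeness used residuals from the group means. The test was tested on simulated data. Python 3.11.15, pandas 2.3.3 and matplotlib 3.10.9 served for tables and figures.

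The genes and lists were chosen with earlier results of these data known. Of 168 list entries 167 were found, 6 under another symbol, and up to 4 genes of a list with the lowest p in a comparison were named, beside those that moved against their list; Lipe and Retn were named for their role after their values were seen. Gene positions are from GENCODE M21 (GRCm38) and promoters from RefSeq (GRCm38.p6). Alternatives were pseudocounts of 0.1 and 5, no filter or a filter of 5 TPM, median ratio scaling, quantile normalization, limma without the trend or robust, a block for the replicate number, a fit of the compared groups alone, and fits without LC-DTR croton oil samples 2 and 3, without samples 3 and 4 of LC-DTA croton oil, whose label numbers lie apart, and without each sample in turn.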

Additional observations from a re-analysis of the deposited data

Results flagged for a closer look

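The response of Plin4 to croton oil differed between the genotypes by a test of the difference itself, at -0.91 (log2, LC-DTA minus LC-DTR). The same test called 20 of 89 tested genes of the other lipid lists (22.5%), beside 23.1% of all tested genes, so the share was near that background. Responses were lower in LC-DTA for Klf15 (-2.39), Plin5 (-1.77), Gpihbp1 (-1.48), Irs2 (-1.39), Lpin1 (-1.18), Lepr (-1.13), Ppargc1a (-1.11), Ebf1 (-0.93), Angpt4 (-0.93), Pnpla2 (-0.90), Slc27a1 (-0.87), Pde3b (-0.73), Slc2a4 (-0.68), Cdh13 (-0.50) and Adipor1 (-0.31). They were higher in LC-DTA for Dio2 (0.83), Fabp5 (0.77), Acly (0.71), Acaca (0.57) and Acsl1 (0.42). All were fitted over 7 samples of each genotype. Without LC-DTR croton oil samples 2 and 3 the calls of Dio2, Ebf1, Pde3b and Slc2a4 were lost (adjusted p = 0.0628, 0.0501, 0.129 and 0.0511). Without LC-DTA vehicle sample 2 those 4 calls were lost as well as those of Cdh13 and Adipor1 (adjusted p = 0.0530 and 0.0554), and Dio2, Pde3b and Slc2a4 also lost theirs without other single samples. In groups of 4 samples, no value of the 10 genes lay far enough from the others to be singled out in the 20 sets checked.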

How the results depend on the processing

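Over the 10 genes, the 5 comparisons and 26 alternatives, 1212 of 1290 values kept their sign and their side of the threshold, 43 changed sign, 10 lost a call and 25 gained one. Leaving out each sample in turn, the number of the 10 genes called was 3 to 5 for croton oil in LC-DTR, 0 to 2 in LC-DTA, 0 to 3 between the genotypes under vehicle, 4 to 6 after croton oil and 1 to 3 for the difference of responses. In LC-DTA it was 0 with median ratio scaling, 4 with only the compared groups in the fit (Plin1, Plin4, Cidec and Car3) and 2 without LC-DTA croton oil samples 3 and 4 (Plin4 and Cfd). For the difference of responses it was 2 without LC-DTR croton oil samples 2 and 3. The cause was not tested.

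None of the values that changed sign was called. In LC-DTR ears they were Cfd at -0.014 with quantile normalization, and Cidec at -0.14 and Fabp4 at -0.059 without croton oil samples 2 and 3. In LC-DTA ears Fabp4 was at 0.047 with median ratio scaling and 0.011 without croton oil samples 3 and 4. Between the genotypes after croton oil Fabp4 was at 0.024 without LC-DTA samples 3 and 4 and at 0.24 without LC-DTR samples 2 and 3. For the difference of responses Lep was at 0.0077 with a pseudocount of 0.1, 0.025 with median ratio scaling and 0.18 without LC-DTR samples 2 and 3, where Fabp4 was at 0.018. Leaving out single samples turned the sign of differences whose ranges spanned 0. For croton oil in LC-DTR these were Cidec (-0.11 to 0.41), Fabp4 (-0.032 to 0.58), Cfd (-0.17 to 0.26) and Lpl (-0.64 to 0.12), and in LC-DTA Fabp4 (-0.23 to 0.11). Between the genotypes under vehicle they were Plin1 (-0.068 to 0.86), Pparg (-0.086 to 0.097), Lep (-0.0044 to 0.45), Cidec (-0.062 to 0.46), Fabp4 (-0.020 to 0.60), Car3 (-0.060 to 0.50) and Cfd (-0.061 to 0.38), and after croton oil Lep (-0.016 to 0.30) and Fabp4 (-0.17 to 0.067). For the difference of responses they were Adipoq (-0.21 to 0.38), Lep (-0.26 to 0.19) and Lpl (-0.24 to 0.52).

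Same-numbered samples deviated together in 3 of 18 pairs (correlation over 0.1, range -0.37 to 0.14 over 11321 genes). All 3 set vehicle beside croton oil within a genotype. Samples of different numbers were not compared in this way, so whether the numbers pair the samples cannot be read. With the replicate number as a block, 3, 1, 0, 4 and 1 of the 10 genes were called in the 5 comparisons. In that fit Fabp4 in LC-DTA turned to 0.049, Pparg in LC-DTR had adjusted p = 0.0624, and in LC-DTA Plin4 had 0.0628 and Cfd 0.0495.

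Depth is unknown, so how much of the spread is sampling error cannot be read, and a difference that was not called may be below what 3 or 4 samples with this spread can show. Median ratio scaling turned the calls over all genes from 3552 higher and 5067 lower to 4388 and 4112 for croton oil in LC-DTA.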
